A study of Homo sapiens with 6 samples.

Results

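NRF2, encoded by NFE2L2, is the transcription factor that cells use against oxidants and reactive chemicals. Its partner KEAP1 holds it in the cytoplasm and delivers it to a CUL3 ubiquitin ligase. When oxidants modify KEAP1, NRF2 escapes degradation, pairs with small MAF proteins and binds antioxidant response elements in DNA. Its targets make glutathione, reduce thioredoxin, supply NADPH, reduce quinones, aldehydes and ketones, and pump conjugates out of the cell. The aldo-keto reductases of the AKR1C group also interconvert steroid hormones and prostaglandins, and AKR1C3 can make androgens from weak precursors, for which it is studied in prostate cancer.

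The set described here holds 33 genes: NFE2L2, KEAP1 and 31 of their targets and related enzymes. Each was found by its symbol in a table of 60662 genes, each matched 1 row, and the 33 all passed the filter on low counts that left 24695 genes for testing. The 6 samples were cultures of the human prostate cancer line DU-145 with a stable, tetracycline-inducible hairpin RNA that targets MUC1. The 3 DOX-negative cultures received vehicle and the 3 DOX-positive cultures received doxycycline (DOX), which induces the hairpin, for 7 days. Both groups were stimulated with interferon-gamma at 10 ng/ml for 24 hours, and polyadenylated RNA was sequenced by a strand-specific kit. The labels do not say whether the line was 1 clone. DOX-treated cells without the hairpin and cells without interferon-gamma were not analysed here. The effects of DOX and of the hairpin therefore cannot be told apart, and no value below measures a response to interferon-gamma.

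Libraries held 87739734 to 150921436 reads. MUC1 fell 15.5-fold, from 21.5 ± 0.963 to 1.39 ± 0.123 CPM (read counts scaled to library size; mean ± SD, n = 3 each), which goes with the labels. The epithelial markers KRT8, KRT18, KRT19, EPCAM and CDH1 were present in every library, at 54.5 CPM or more, and 5 of 5 rose with DOX, by 2.26-fold (KRT18) to 3.41-fold (EPCAM; edgeR adjusted p = 2.37e-14 and 3.38e-16). Their summed level was 813.1 to 863.6 CPM in DOX-negative and 2261 to 2350.4 CPM in DOX-positive libraries. The part of this shift in the results below was not tested. The prostate luminal marker KLK3 had no reads in any library. Leukocyte, endothelial and fibroblast markers stayed at or below 0.208 CPM, except COL1A1 at 4.45 to 7.07 CPM, which fell (edgeR adjusted p = 0.000181).

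Most of the 33 genes were lower in DOX-positive cells. At an adjusted p under 0.05 in edgeR's quasi-likelihood test, 26 fell, 6 rose and 1, TXNRD1, did not pass. Over all genes tested, 56.5% passed in either direction, 28.9% as lower and 27.6% as higher. The 26 that fell are 78.8% of the set. The 3 DOX-positive values lay below the 3 DOX-negative values for 26 of the 33 genes, against 32.6% of all genes tested, and above them for 6, against 29.8%. A fall of at least 2-fold was seen in 7 genes (21.2% of the set, against 9.38% of all genes), and a rise of at least 2-fold in 0 of them, against 3.56% of all genes. The count of such rises was also 0 at an unadjusted edgeR p under 0.05, with DESeq2 and with limma-voom. The largest increase in the set, in ME1, was 1.18-fold. The median log2 fold change was -0.56 over the 33 genes and -0.04 over all genes tested. Together the 33 genes took 0.792% to 0.825% of the reads in DOX-negative libraries and 0.606% to 0.619% in DOX-positive libraries. In bulk RNA, fewer cells that express a gene and less RNA per cell cannot be told apart.

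**Figure D1:**
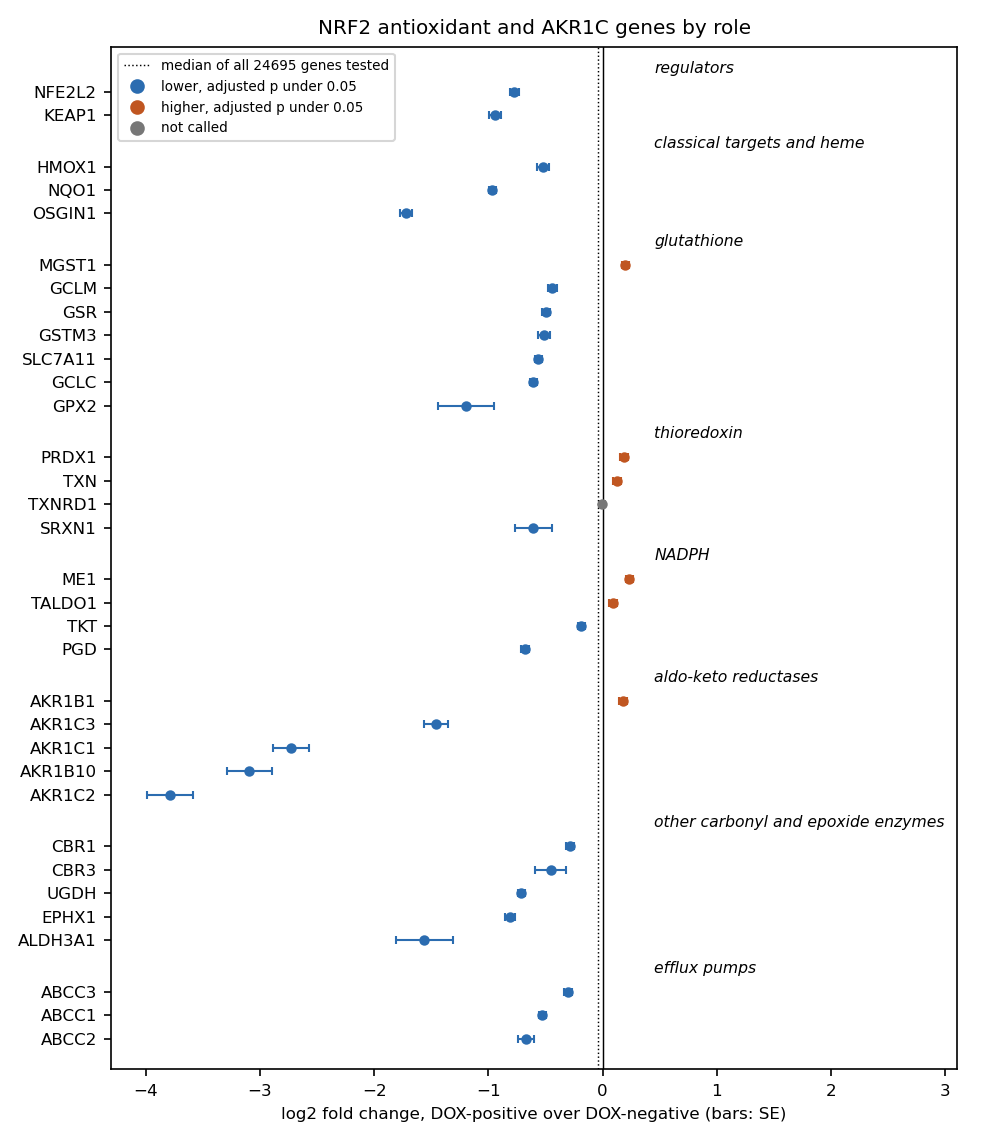
Log2 fold change of DOX-positive over DOX-negative cells for the 33 genes, grouped by role. Points are edgeR estimates, bars are standard errors, and the dotted line is the median of all genes tested (-0.04). The aldo-keto reductases AKR1C2, AKR1B10 and AKR1C1 lie farthest to the left, and the 6 genes that rose lie between 0.09 and 0.23.

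Both regulators fell. NFE2L2 (chromosome 2, 177227595 to 177392697, GRCh38) read 180.0, 179.7 and 196.2 CPM without DOX and 106.1, 108.2 and 110.6 CPM with it. The groups were well separated, and the change was a 1.71-fold fall (log2 fold change -0.77, SE 0.04, edgeR adjusted p = 3.86e-11). Of the distinct 50-base windows of NFE2L2 transcripts, 14.4% also occur in AC019080.1, an overlapping gene on the same strand. AC019080.1 rose from 6.05 to 9.18 CPM, and how many reads the pair shared was not tested. KEAP1, the inhibitor (chromosome 19, 10486120 to 10503741), read 39.1, 37.8 and 33.8 CPM without DOX and 18.1, 19.7 and 20.0 CPM with it. It fell 1.92-fold (log2 fold change -0.94, SE 0.05, edgeR adjusted p = 1.77e-10). NFE2L2 and KEAP1 thus moved the same way. There were 4.60, 4.75 and 5.80 NFE2L2 reads per KEAP1 read in DOX-negative libraries and 5.86, 5.50 and 5.53 in DOX-positive libraries. These ratios overlapped between the groups (exact two-sided permutation p = 0.3, and 0.1 is the smallest that 3 against 3 libraries allow; 6 such within-library ratios were computed here, chosen after values were seen). NRF2 is controlled largely through its protein, which was not measured here.

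The promoters of the set were searched for TGACNNNGC, the core of the antioxidant response element, on both strands of the 250 bases before each RefSeq start (GRCh38.p14). Of the 33 genes, 24 had an entry in the promoter table, and 8 of these (33.3%) held the core in at least 1 window. Over all promoters of that length, 13.2% of 27305 genes held it. The 8 were CBR1, EPHX1, GCLM, GPX2, KEAP1, ME1, PGD and TXNRD1. By window, 9 of 33 (27.3%) held the core, against 10.9% of 35116, and with a purine before it, as in the longer form of the element, 7 (21.2%), against 5.73%. Matches are shown for genes that fell (KEAP1, GCLM), for 1 that was not called (TXNRD1) and for 1 that rose (ME1), so that they can be compared. Capitals mark the core, which appears as its reverse complement where it lies on the strand opposite to the gene. Each sequence reads along the gene's strand.
KEAP1, chr19:10502807-10502835, minus strand: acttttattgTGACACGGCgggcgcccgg
KEAP1, chr19:10502784-10502812, minus strand, core reversed: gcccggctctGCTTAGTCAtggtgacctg
GCLM, chr1:93909446-93909474, minus strand, core reversed: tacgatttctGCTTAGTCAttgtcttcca
TXNRD1, chr12:104215670-104215698, plus strand: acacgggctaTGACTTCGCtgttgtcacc
TXNRD1, chr12:104286920-104286948, plus strand, core reversed: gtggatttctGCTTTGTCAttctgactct
ME1, chr6:83431170-83431198, minus strand: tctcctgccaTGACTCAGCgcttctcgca
The core read on its own strand is TGACTAAGC both in the second KEAP1 window and in GCLM. Of the 8 genes with the core, CBR1, EPHX1, GCLM, GPX2, KEAP1 and PGD fell, TXNRD1 was not called and ME1 rose. In the whole set 26 of 33 fell. Whether the core goes with the direction was not tested, and a match is a description of letters and not a binding site.

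Among the classical targets, NQO1, OSGIN1 and HMOX1 fell. NQO1 is the quinone reductase most often used as a readout of NRF2 (chromosome 16, 69706996 to 69726951). It read 839.6, 785.4 and 824.6 CPM in DOX-negative libraries and 409.0, 417.4 and 428.4 CPM in DOX-positive libraries. This was a 1.95-fold fall (log2 fold change -0.97, SE 0.03, edgeR adjusted p = 1.98e-13), just short of 2-fold. OSGIN1, an oxidative stress-induced growth inhibitor (chromosome 16, 83948282 to 83966332), fell further. Its values were 30.4, 28.7 and 27.8 CPM without DOX and 8.86, 8.41 and 9.17 CPM with it, a 3.29-fold fall (edgeR adjusted p = 7.61e-14). HMOX1, the heme-degrading oxygenase (chromosome 22, 35380361 to 35394214), read 15.9, 16.5 and 16.4 CPM without DOX and 10.8, 11.7 and 11.5 CPM with it. It fell 1.44-fold (edgeR adjusted p = 2.28e-07), the smallest fall of the 3.

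Glutathione genes fell in 6 of 7 cases. SLC7A11 imports the cystine from which glutathione is made (chromosome 4, 138164097 to 138242349). It read 267.0, 248.5 and 261.2 CPM in DOX-negative libraries and 172.7, 175.8 and 177.5 CPM in DOX-positive libraries, a 1.48-fold fall (edgeR adjusted p = 5.1e-10). GCLC and GCLM are the catalytic and modifier subunits of glutamate-cysteine ligase, the rate-limiting enzyme. GCLC fell 1.52-fold, from 348.1 ± 7.39 to 228.5 ± 5.91 CPM. GCLM (chromosome 1, 93885205 to 93909456) read 134.4, 124.1 and 134.5 CPM without DOX and 95.3, 99.6 and 94.4 CPM with it, a 1.36-fold fall (edgeR adjusted p = 3.86e-08). GCLC reads per GCLM read were 2.58, 2.75 and 2.65 in DOX-negative libraries and 2.34, 2.29 and 2.49 in DOX-positive libraries, with no overlap (exact two-sided permutation p = 0.1, the smallest possible, and 0.12 after Benjamini-Hochberg adjustment over the 6 ratios). With 3 against 3 libraries no ratio could pass the threshold, so this test cannot decide whether the ratio changed.

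GSR, which regenerates reduced glutathione, fell 1.41-fold, from 288.7 ± 12.9 to 204.4 ± 2.99 CPM, and the transferase gene GSTM3 fell 1.43-fold. GPX2, a glutathione peroxidase of epithelia (chromosome 14, 64939152 to 64942905), was near the bottom of the range. It had 63, 132 and 100 reads in DOX-negative and 48, 55 and 30 in DOX-positive libraries, or 0.634, 0.899 and 1.09 against 0.455, 0.381 and 0.303 CPM. The groups did not overlap, and the 2.30-fold fall carried a wide error (log2 fold change -1.20, SE 0.24, edgeR adjusted p = 0.000507). GPX2 overlaps CHURC1 on the opposite strand, which fell from 133.3 to 110.9 CPM. None of the 50-base windows of the protein-coding GPX2 transcripts occur, on either strand, in transcripts of another gene. Reads from unspliced RNA are not covered by that search. MGST1, a membrane-bound glutathione transferase and the exception in this group, rose 1.15-fold, with 589.5, 573.1 and 602.9 CPM without DOX and 656.0, 668.1 and 700.7 CPM with it (edgeR adjusted p = 4.18e-05). That call was lost when libraries were scaled by their size alone (log2 fold change 0.05, adjusted p = 0.0758). The gene overlaps LMO3 on the opposite strand, which fell from 282.3 to 150.8 CPM. Protein-coding MGST1 transcripts likewise share none of their 50-base windows, but these number 2301 for a listed gene length of 7441 bases. Other MGST1 sequence was not searched, so the effect of the overlap on its count was not tested.

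**Figure D2:**
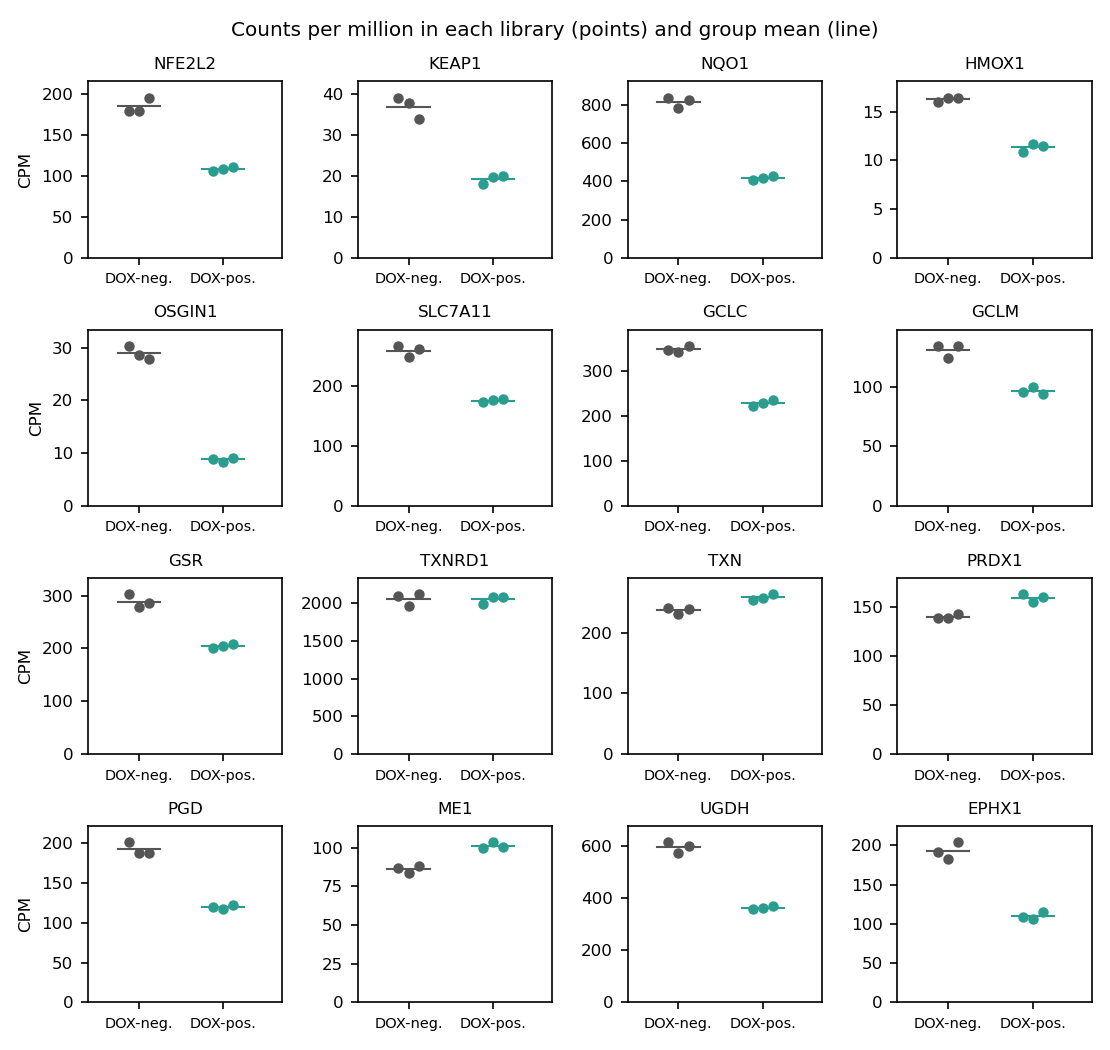
CPM of 16 of the genes in each of the 6 libraries, with axes that start at 0. Points are libraries and lines are group means. The groups are separate in every panel except TXNRD1, where values run from 1964 to 2123 CPM in DOX-negative and from 1997 to 2087 CPM in DOX-positive cells.

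Of the 4 thioredoxin genes, 2 rose, 1 fell and 1 did not pass. TXNRD1, a selenoprotein reductase that keeps thioredoxin reduced (chromosome 12, 104215779 to 104350305), had the highest level of the set. It read 2095, 1964 and 2123 CPM without DOX and 1997, 2083 and 2087 CPM with it. The values overlapped and the log2 fold change was -0.0034, with an SE of 0.03 (edgeR adjusted p = 0.929). With upper-quartile scaling TXNRD1 was called lower (log2 fold change -0.06, adjusted p = 0.0354), and with library size alone as well (-0.15, adjusted p = 8.27e-05). Its antisense gene AC089983.1 rose from 3.63 to 12.9 CPM, small against TXNRD1 itself. The gap between NQO1 and TXNRD1 does not depend on how libraries were scaled. For each 100 TXNRD1 reads there were 40.1, 40.0 and 38.8 NQO1 reads in DOX-negative libraries and 20.5, 20.0 and 20.5 in DOX-positive libraries (exact two-sided permutation p = 0.1, the smallest possible, and 0.12 adjusted over the 6 ratios).

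TXN, which encodes thioredoxin, rose 1.09-fold, from 236.8 ± 5.74 to 258.3 ± 4.80 CPM (edgeR adjusted p = 0.00341). PRDX1, a peroxiredoxin that thioredoxin recharges, rose 1.14-fold, from 139.8 ± 2.44 to 159.0 ± 3.92 CPM (edgeR adjusted p = 0.000145). Both calls were lost with library size alone, where TXN had a log2 fold change of -0.02 (adjusted p = 0.600) and PRDX1 one of 0.04 (0.234), and the TXN call was lost with upper-quartile scaling too (adjusted p = 0.0517). PRDX1 shares 20.6% of its 50-base windows with MMACHC on the opposite strand, which rose from 26.3 to 34.6 CPM, so its count is uncertain. SRXN1, the sulfiredoxin that rescues over-oxidized peroxiredoxins (chromosome 20, 646615 to 653370), read 1.58, 1.57 and 1.44 CPM without DOX and 0.825, 1.15 and 1.03 CPM with it. The groups did not overlap and SRXN1 fell 1.52-fold (edgeR adjusted p = 0.00482). Its level is uncertain. Of the distinct 50-base windows of SRXN1 transcripts, 84.7% also occur in AL121758.1, an annotated gene on the same strand that spans it, and reads shared by the pair could have been discarded. The count of AL121758.1 itself averaged 0.427 and 0.261 CPM.

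Enzymes that supply NADPH were split. PGD, the second dehydrogenase of the pentose phosphate pathway (chromosome 1, 10398592 to 10420144), read 201.5, 188.0 and 188.3 CPM in DOX-negative and 120.4, 117.6 and 122.0 CPM in DOX-positive libraries. It fell 1.60-fold (log2 fold change -0.68, SE 0.04, edgeR adjusted p = 7.41e-11). In the non-oxidative branch, which rearranges the sugars, the changes were small. Transketolase, TKT, fell 1.14-fold, from 543.9 ± 9.43 to 477.6 ± 14.2 CPM (edgeR adjusted p = 5.35e-05). Transaldolase, TALDO1, rose 1.06-fold (edgeR adjusted p = 0.0282), a call that was lost without DOX-negative replicate 1 (0.0553), without DOX-positive replicate 3 (0.0984) and under 3 other settings. The malic enzyme gene ME1 rose 1.18-fold, from 86.3 ± 2.06 to 101.4 ± 1.92 CPM (edgeR adjusted p = 1.08e-05), and kept its call under the settings tried.

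The aldo-keto reductases held the deepest falls of the set. AKR1C1, AKR1C2 and AKR1C3 lie side by side on chromosome 10 (AKR1C1 at 4963253 to 4983283, AKR1C2 at 4987400 to 5018031 and AKR1C3 at 5035354 to 5107686, GRCh38). They are near-identical copies, so that short reads can fit more than 1 of them. The coding sequences of AKR1C1 and AKR1C2 differ at 19 of 969 bases and are 98.0% identical, with 186 bases as the longest run without a difference. AKR1C3 is 91.4% identical to AKR1C1 and 91.0% to AKR1C2. Coding bases 73 to 162, counted from the start codon, are the first 90-base stretch with the most positions at which AKR1C1 and AKR1C2 differ. Capitals mark these 19 positions, of which 10 differ between AKR1C1 and AKR1C2 (GENCODE 29 transcripts). They are shown because only reads over such positions tell the copies apart.
AKR1C1: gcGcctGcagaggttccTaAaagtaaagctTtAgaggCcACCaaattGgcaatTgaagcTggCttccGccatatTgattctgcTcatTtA
AKR1C2: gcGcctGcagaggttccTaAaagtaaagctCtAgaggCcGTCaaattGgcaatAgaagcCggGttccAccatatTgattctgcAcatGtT
AKR1C3: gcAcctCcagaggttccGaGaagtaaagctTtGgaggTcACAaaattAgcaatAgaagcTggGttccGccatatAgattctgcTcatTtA
Of the distinct 50-base windows of AKR1C2 transcripts, 48.1% occur in another gene's transcripts, nearly all of them in AKR1C1. The share was 27.0% for AKR1C1 and 9.55% for AKR1C3. How the counting treated shared reads is not given in the sources used here.

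AKR1C2, which inactivates dihydrotestosterone, had 217, 310 and 183 reads in DOX-negative and 18, 24 and 11 reads in DOX-positive libraries. These were 2.10 ± 0.0927 and 0.149 ± 0.0332 CPM. A count of 3 reads corresponds to 0.0204 to 0.0328 CPM in these libraries. The fall was 13.8-fold (log2 fold change -3.79, SE 0.20, edgeR adjusted p = 1.02e-10). AKR1C1, which inactivates progesterone, read 3.67, 4.20 and 4.14 CPM without DOX and 0.503, 0.547 and 0.777 CPM with it, a 6.63-fold fall (log2 fold change -2.73, SE 0.16, edgeR adjusted p = 2.72e-10). AKR1C3, which makes testosterone and prostaglandin F, read 5.79, 5.88 and 5.28 CPM without DOX and 2.09, 1.90 and 2.21 CPM with it. Its fall was 2.75-fold (log2 fold change -1.46, SE 0.10, edgeR adjusted p = 3.12e-09). For each of the 3 copies the groups lay far apart.

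The summed reads of the 3 copies do not depend on how reads were divided among them. The sum was 11.8 ± 0.402 CPM without DOX and 2.82 ± 0.250 CPM with it, a 4.18-fold fall (log2 fold change -2.06, edgeR adjusted p = 1.67e-12). The division differed as well, by an amount the exact test cannot place below its threshold. AKR1C2 made up 18.8%, 17.3% and 17.5% of the summed reads in DOX-negative libraries and 6.19%, 6.37% and 3.58% in DOX-positive libraries. AKR1C1 went from 34.1% ± 2.38 to 21.4% ± 3.46 (SD, n = 3 each) and AKR1C3 from 48.0% ± 1.74 to 73.2% ± 2.18. None of the 3 shares overlapped between the groups (exact two-sided permutation p = 0.1 each, the smallest possible, and 0.12 after Benjamini-Hochberg adjustment over the 6 within-library ratios computed here).

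**Figure D3:**
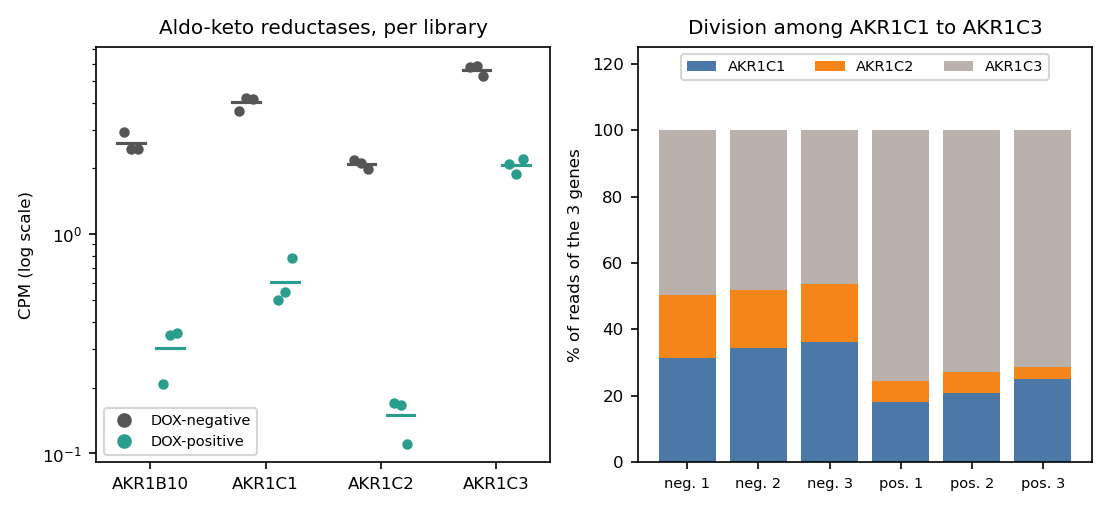
Left, CPM of AKR1B10 and AKR1C1 to AKR1C3 in each library on a log axis, with points for libraries and lines for group means. Right, the percentage of the summed reads of AKR1C1 to AKR1C3 assigned to each gene in each library, where AKR1C3 takes 46.2% to 49.7% in DOX-negative and 71.3% to 75.6% in DOX-positive libraries.

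AKR1B10, a reductase of retinal and lipid aldehydes (chromosome 7, 134527592 to 134541408), fell 8.54-fold. It had 291, 360 and 225 reads without DOX and 22, 50 and 35 with it, or 2.93, 2.45 and 2.46 against 0.209, 0.346 and 0.353 CPM (log2 fold change -3.09 with an SE of 0.20, edgeR adjusted p = 8.14e-10). Its copy AKR1B15, which is not among the 33 and with which it shares 11.6% of its 50-base windows, fell as well, from 0.868 ± 0.178 to 0.0822 ± 0.0481 CPM (edgeR adjusted p = 3.49e-07). AKR1B1, the aldose reductase, is the abundant member of the family. It rose 1.13-fold, from 187.2 ± 5.17 to 211.9 ± 1.04 CPM (edgeR adjusted p = 0.000165), and lost its call with library size alone (log2 fold change 0.04, adjusted p = 0.298). Per kilobase of listed gene length, AKR1B1 stood at 51.2 CPM in DOX-negative cells, against 1.47 for AKR1B10, 1.44 for AKR1C3, 0.457 for AKR1C1 and 0.325 for AKR1C2. The 4 aldo-keto reductases that fell thus ranked from 26 to 32 of the 33 genes without DOX.

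Genes around the AKR1C copies were read to see how far along the chromosome the fall reached. Of 26 table genes within 500 kb of AKR1C2, itself included, 8 were tested and had more than 3 reads in every library. AKR1E2, a related reductase gene 139.3 kb away, rose from 11.2 ± 0.732 to 13.7 ± 0.636 CPM (log2 fold change 0.29, edgeR adjusted p = 0.000663), a call that missed the threshold in at least 1 alternative, where the adjusted p reached 0.0511. NET1, a RhoA exchange factor 394.5 kb to the other side, read 61.4 ± 2.80 and 59.4 ± 2.28 CPM and was not called (edgeR adjusted p = 0.323). The pseudogene AKR1C6P, named after its values were seen, fell 2.04-fold from 0.429 ± 0.0338 CPM (edgeR adjusted p = 0.00507). AL391427.1, an antisense gene inside AKR1C2 and also named after its values were seen, had 9, 17 and 11 reads without DOX and 1, 0 and 0 with it, and fell (edgeR adjusted p = 0.000206). How many of its reads belong to AKR1C2 was not tested. AKR1C4, AKR1C8P, UCN3, TUBAL3 and CALML5 were too low to be tested. So were 3 genes on the NET1 side, named after their values were seen. AL355303.1, 216.3 kb away, had 4, 12 and 11 reads without DOX and 0 in each library with it. LINC02561, 248.0 kb away, had 4, 6 and 10 against 0 in each. AKR1C7P, 257.1 kb away, had 4, 8 and 5 against 8, 11 and 4. The reach of the fall on that side is therefore not settled. In the 250 bases before their RefSeq starts, AKR1C1 and AKR1C2 have 245 of 246 aligned bases in common, and neither window holds the TGACNNNGC core.

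**Figure D4:**
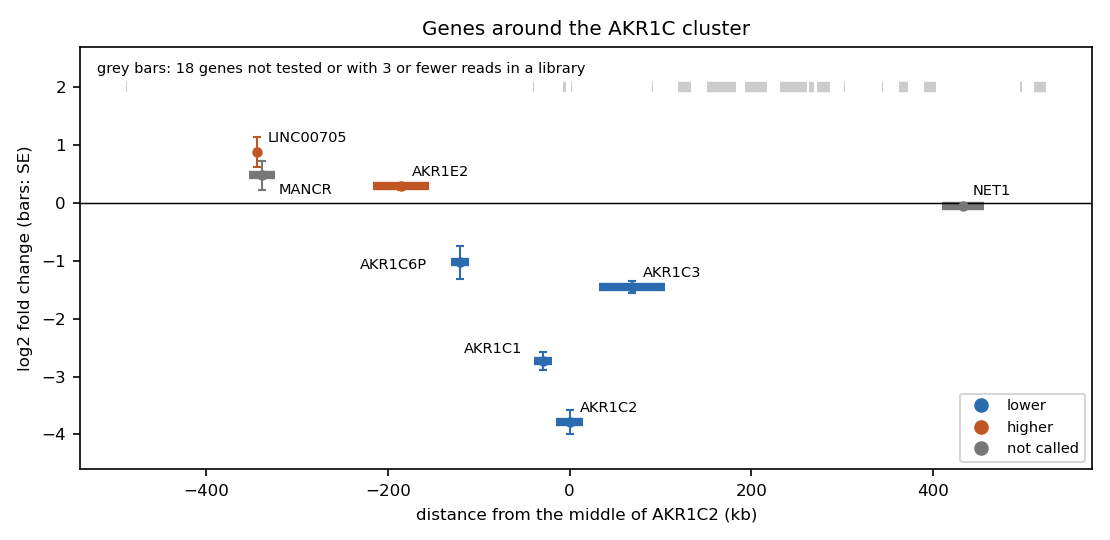
Log2 fold change of genes within 500 kb of AKR1C2 against distance from its middle in kilobases, with vertical bars for standard errors and thick bars for gene spans. AKR1C1, AKR1C2, AKR1C3 and AKR1C6P lie below 0, AKR1E2 and LINC00705 above it, and grey bars mark 18 genes not tested or with 3 or fewer reads in a library.

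The other carbonyl and epoxide enzymes fell in 5 of 5 cases. UGDH, which makes UDP-glucuronate for conjugation, fell 1.64-fold, from 595.9 ± 20.9 to 363.8 ± 6.10 CPM (edgeR adjusted p = 9.4e-12). EPHX1, the microsomal epoxide hydrolase, fell 1.75-fold, from 192.6 ± 10.8 to 110.0 ± 4.84 CPM (edgeR adjusted p = 9.12e-11). ALDH3A1, an aldehyde dehydrogenase (chromosome 17, 19737984 to 19748943), had 77, 106 and 64 reads without DOX and 32, 27 and 26 with it, or 0.775, 0.722 and 0.699 against 0.304, 0.187 and 0.262 CPM. The groups did not overlap and ALDH3A1 fell 2.95-fold (log2 fold change -1.56, SE 0.25, edgeR adjusted p = 4.64e-05). The neighbouring carbonyl reductase genes CBR1 and CBR3 fell 1.22-fold and 1.37-fold (edgeR adjusted p = 1.27e-06 and 0.00802). The CBR3 call was lost without DOX-positive replicate 2 (adjusted p = 0.0640). CBR3 shares 35.7% of its 50-base windows with CBR3-AS1 on the opposite strand, which read 2.04 and 2.63 CPM.

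The efflux pumps, which export glutathione and glucuronide conjugates, fell in 3 of 3 cases. ABCC1 fell 1.44-fold, from 189.4 ± 3.88 to 131.5 ± 2.11 CPM, ABCC2 fell 1.59-fold, from 11.5 ± 0.222 to 7.20 ± 0.644 CPM, and ABCC3 fell by 0.31 on the log2 scale, from 325.3 ± 4.70 to 263.3 ± 8.59 CPM (edgeR adjusted p = 5.69e-10, 3.94e-07 and 5.89e-07).

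The order of levels within the set shifted as a result. Per kilobase of listed gene length, TXNRD1 ranked first in both groups, at 307.1 ± 12.6 CPM without DOX and 306.4 ± 7.61 CPM with it. NQO1 came next in DOX-negative cells at 274.8 ± 9.42 CPM. In DOX-positive cells it read 140.8 ± 3.27 CPM, and TXN stood above it at 255.8 CPM. Listed lengths can exceed the transcript in use, so these levels are approximate.

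Beyond the set, a list of 67 other genes of NRF2 control, antioxidant defence and detoxification was read from the same fit. Of these, 60 were tested: 33 rose, 18 fell and 9 did not pass, while 27.6% of all genes rose and 28.9% fell. Their median log2 fold change was 0.16, against -0.56 for the 33 genes. Of the small MAF genes, MAFG fell 1.14-fold, MAFK rose 1.20-fold and MAFF did not pass (edgeR adjusted p = 0.000586, 5.8e-05 and 0.938; MAFK and MAFF are named after their values were seen). BACH1, a repressor that competes for the same sites, fell 1.11-fold (edgeR adjusted p = 0.00330), a call lost in at least 1 alternative, where the adjusted p reached 0.0700. CUL3 rose 1.20-fold (edgeR adjusted p = 3.62e-06). SQSTM1, an autophagy receptor that sequesters KEAP1, read 318.1 ± 5.84 and 320.7 ± 7.51 CPM and did not pass (edgeR adjusted p = 0.775). Of the ferritin chains, FTL fell 1.16-fold, from 2502 ± 32.9 to 2150 ± 46.9 CPM (edgeR adjusted p = 2.11e-07), and FTH1 read 749.0 ± 76.5 and 811.1 ± 43.5 CPM without passing (edgeR adjusted p = 0.0880).

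Outside the 33 genes, 4 of the 60 genes tested fell at least 2-fold, against 9.38% of all genes, and 3 rose at least 2-fold, against 3.56%. TRIM16L fell 3.78-fold, from 71.8 ± 3.75 to 19.0 ± 0.675 CPM (edgeR adjusted p = 2.34e-15), and the transferase genes GSTA4 and GSTM2 fell 2.04-fold and 2.34-fold (edgeR adjusted p = 1.19e-08 and 0.000211). AKR1B15 is given above. The glutathione peroxidase genes GPX3 and GPX1 rose. GPX3 read 20.8, 20.2 and 19.0 CPM without DOX and 83.2, 89.3 and 92.3 CPM with it, a 4.41-fold rise (edgeR adjusted p = 1.04e-15), and GPX1 rose 2.48-fold, from 17.8 ± 1.07 to 44.2 ± 0.183 CPM (edgeR adjusted p = 1.77e-13). These went opposite to GPX2. TXNIP, which binds and inhibits thioredoxin, rose 2.78-fold, from 115.4 ± 4.64 to 321.1 ± 9.18 CPM (edgeR adjusted p = 1.04e-14).

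**Figure D5:**
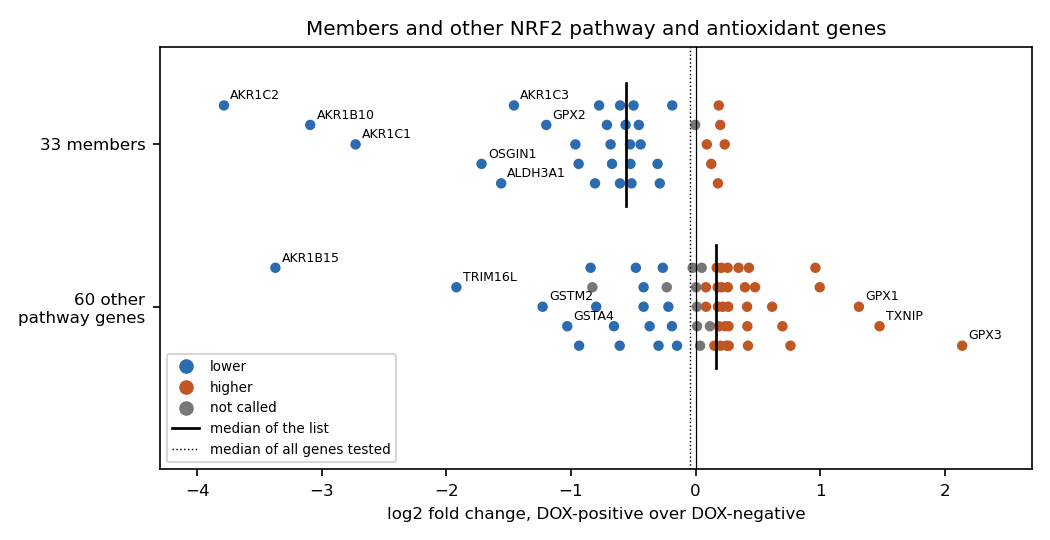
Log2 fold change of the 33 genes and of 60 other tested genes of the pathway and of antioxidant defence, 1 point per gene, with vertical spread for legibility only. Thick lines are list medians (-0.56 and 0.16) and the dotted line is the median of all genes tested (-0.04).

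The direction of the small changes depends on the scaling of libraries. With library size alone the median of all genes tested moved from -0.04 to -0.19 on the log2 scale, and 27 of the 33 genes fell and 1 rose. Over all genes that setting gave 4689 higher and 9579 lower, in place of 6825 and 7132, and in the list of other genes 21 rose and 25 fell, with a median of 0.02.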

How the data were processed

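RNA from 6 cultures was prepared with a stranded mRNA kit, per the labels' protocols. The deposited table holds whole-number read counts per gene and library, not normalized by the authors, with a gene length. Per the submitters' processing notes, the build was GRCh38.p7, and the tools listed, with no roles, were STAR 2.7.9a, CASAVA 1.8.2 and DESeq2 1.24.0. Not given in the sources used here are the counting tool, annotation, strand setting and treatment of shared reads. Groups and replicate numbers came from the sample titles. Nothing says that cultures were grown apart, so the spread behind each p-value is that of these cultures and may be technical.

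The test was edgeR's quasi-likelihood test (edgeR 4.0.16, R 4.3.3) on group alone, with TMM scaling, default filterByExpr settings (minimum count 10, minimum total 15) and Benjamini-Hochberg adjustment over the 24695 genes kept. The threshold was an adjusted p of 0.05. Standard errors were taken from the fold change and F. CPM values use TMM-scaled library sizes. Where a symbol had several rows, as for GGT1 and SOD2, the row with most reads was used. Positions are from GENCODE 29 (GRCh38), and promoters from RefSeq (GRCh38.p14). No list was tested as a set. The genes, lists and settings were chosen with earlier results of these data known. The rule for values in every library took genes changed at least 2-fold and 14 fixed genes. Of the other genes, those changed at least 2-fold and 7 fixed ones were named. Some genes covered by these rules and marker lists are not reported here.

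Alternatives were scaling by upper quartile, by DESeq2 size factors or by library size alone, no filter, at least 1 CPM in 3 libraries, DESeq2 1.42.0, limma-voom (limma 3.58.1), the replicate block, each library left out, and AKR1C1 to AKR1C3 as 1 feature. The 3-read floor covers counting error only. Figures were drawn with matplotlib 3.10.9.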

Additional observations from a re-analysis of the deposited data

How the results depend on the processing

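Among the 33 genes, the count that fell stayed between 24 and 27 and the count that fell at least 2-fold between 6 and 9 under every setting run. With a minimum of 1 CPM in 3 libraries, 31 of the 33 were left for testing. The count that rose was 6 in the main fit, 4 with upper-quartile scaling, 1 with library size alone and 5 or 6 under the other settings. Among the other pathway genes 33 rose in the main fit, 21 with library size alone and 30 to 34 under the other settings. TXNRD1, which lay near 0, changed sign with DESeq2 size factors (0.0231), no filter (0.0160), the DESeq2 test (0.0231) and limma-voom (0.0012), and without DOX-negative replicate 1 (0.0296), DOX-negative replicate 3 (0.0373) or DOX-positive replicate 1 (0.0250), with a range of -0.039 to 0.0373 over the 6 libraries left out in turn. TXN (-0.0178) and TALDO1 (-0.0536) changed sign with library size alone. Leaving out each library, the sum of AKR1C1 to AKR1C3 ran from -2.13 to -2.00 and MUC1 from -4.02 to -3.90 on the log2 scale.

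Replicate numbers did not pair the samples. Deviations of same-numbered libraries correlated at -0.07, -0.03 and 0.01, so the replicate block is given only here. With the replicate block 6 of the 33 genes rose and 26 fell, as without it, and over all genes 6670 rose and 6833 fell. The sum of AKR1C1 to AKR1C3 was -2.06 with the block. AKR1B10, AKR1C2, ALDH3A1 and GPX2 had under 60 reads in each DOX-positive library, which limits the precision of their folds.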
